A study of Mus musculus with 24 samples.

Results

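The genes that make, load and clear the 2 fast transmitters of the brain were followed in the nucleus accumbens (NAc) and the ventral tegmental area (VTA) of mice with and without the vitamin D receptor. The members were chosen by name: Slc17a7, Slc17a6, Slc17a8, Slc32a1, Gad1, Gad2 and Slc6a11, which are 7 of the 30270 genes in the deposited tables. Each occurs once in each of the 8 tables. The 24 libraries came from C57BL/6 mice, wild-type or Vdr-/-, killed 90 min after PBS or morphine (5 mg/kg) was given intraperitoneally, and in each region every one of the 4 groups had 3 libraries. Tissue was taken as bilateral punches 1.5 mm across, so every library mixes all cell types of the punch. The food of the Vdr-/- mice was enriched in calcium, so genotype and diet cannot be told apart. Mice are named by the numbers in the labels, which are the same in both regions: 1, 2 and 3 (wild-type, PBS), 1.0, 1.1 and 1.2 (wild-type, morphine), 7, 8 and 9 (Vdr-/-, PBS) and 2.0, 2.1 and 2.2 (Vdr-/-, morphine).

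A neuron is glutamatergic when it can pump glutamate into synaptic vesicles, and the vesicular glutamate transporters VGLUT1, VGLUT2 and VGLUT3, encoded by Slc17a7, Slc17a6 and Slc17a8, do this in largely separate sets of neurons. VGLUT1 is typical of the cerebral cortex and hippocampus, VGLUT2 of the thalamus, hypothalamus and brainstem, and VGLUT3 of scattered neurons that release another transmitter as well. A GABA neuron makes GABA from glutamate with the glutamate decarboxylases GAD67 (Gad1) and GAD65 (Gad2) and loads it with the vesicular transporter VGAT (Slc32a1). The transporter GAT-3 (Slc6a11), found mainly on astrocytes, takes GABA back up. The principal cells of the NAc are GABA medium spiny neurons, and the VTA holds dopamine, GABA and VGLUT2 neurons side by side.

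The members lie on 4 chromosomes of the GRCm38 build (GENCODE M21): Slc17a7 (chr7:45163949-45176142), Slc17a6 (chr7:51622006-51671119), Slc32a1 (chr2:158610767-158615748), Gad1 (chr2:70553072-70602014), Gad2 (chr2:22622205-22693874) and Slc6a11 (chr6:114131241-114249952) on the plus strand and Slc17a8 (chr10:89574020-89621253) on the minus strand. Reads in Slc32a1 could in part be shared with the antisense gene Gm14205, which covers 24.9% of its exonic bases and held 0 to 3 reads a library. Of the 25-base words in Gad1 transcripts, 5.55% also occur in the pseudogene Gad1-ps, which held 0 to 8 reads a library. For the other members at most 3.89% of these words occur in any other gene.

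Reads on genes ranged from 9328726 to 30184426 a library. Reads were fewest for Slc17a8 in the VTA (13 to 69 a library). They were also low for Slc17a8 (126 to 268) and Slc17a6 (131 to 467) in the NAc and, in some libraries, for Slc17a7 in the VTA (53 to 2694). These values carry the largest counting error. Vdr itself had 0 to 17 reads a library in both genotypes and gives no check of the genotype labels. The markers fitted the regions: all 10 medium spiny neuron markers were higher in the NAc, and 8 of 9 dopamine neuron markers were higher in the VTA. By the same test, described below, 73.0% of all genes differed between the regions. The VTA libraries were far from alike, since their summed dopamine marker level ran from 191 to 2981 TPM (a level per transcript length, scaled to the same total in every library), from 2507 to 2981 in wild-type mice given PBS, 471 to 2093 in Vdr-/- mice given PBS, 191 to 580 in wild-type mice given morphine and 527 to 994 in Vdr-/- mice given morphine. In the NAc the summed astrocyte marker level of wild-type PBS mouse 2 was 1040 TPM, against 1499 to 1863 in the other NAc libraries. In a bulk sample, fewer cells of a type and less RNA per cell cannot be told apart. Library names have one form in all PBS libraries and another in all morphine libraries, so any difference in handling between these sets and the injection cannot be told apart.

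Levels of different genes were compared per transcript length, as TPM computed from the reads and the summed exon length. This length merges the annotated exons of a gene (7639 bases for Gad1, 5392 for Slc17a7 and 2797 for Slc32a1). Orders, shares and ratios between genes depend on it. In the NAc the most abundant member was Gad2 (520 ± 83.4 TPM, SD, n = 12), followed by Slc17a7 (403 ± 129), Gad1 (319 ± 40.9), Slc32a1 (318 ± 45.5) and Slc6a11 (186 ± 53.8). Slc17a6 (11.8 ± 4.36 TPM) and Slc17a8 (10.2 ± 2.07) were far lower. Within this order the ranges over libraries overlapped between all neighbours except Slc6a11 and Slc17a6, and Gad1 and Slc32a1 changed places in 6 of 12 libraries. In the VTA the order was another one: Slc6a11 led (780 ± 112 TPM, SD, n = 12) and was above Gad2 (274 ± 52.0) in 12 of 12 libraries. Slc17a6 (213 ± 51.3 TPM), Slc32a1 (210 ± 40.5) and Gad1 (179 ± 39.1) had overlapping ranges, Slc17a7 was lower (36.1 ± 35.6) and Slc17a8 lowest (1.85 ± 0.789).

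The clearest regional contrast was in the make-up of the vesicular glutamate transporters in the punches. Of the summed TPM of the 3 transporters in the NAc, Slc17a7 made up 94.3% ± 2.18 (SD, n = 12), Slc17a6 3.01% ± 1.34 and Slc17a8 2.69% ± 1.23. In the VTA, Slc17a6 made up 85.3% ± 13.8, Slc17a7 14.0% ± 13.9 and Slc17a8 0.721% ± 0.253. The ranges did not overlap for the first 2 genes: the Slc17a7 share was at least 90.4% in every NAc library and at most 37.2% in every VTA library. NAc mice 3 and 7 had the highest sums of 9 cortical excitatory neuron markers in the NAc (333 and 326 TPM) and the highest Slc17a7 (553 and 675 TPM). NAc mouse 1.0 had the lowest sum (185 TPM) and 267 TPM of Slc17a7, while mouse 1, lowest in Slc17a7 (235 TPM), had a sum of 249. The part of cortical tissue in the NAc values of Slc17a7 was not tested.

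**Figure D1:**
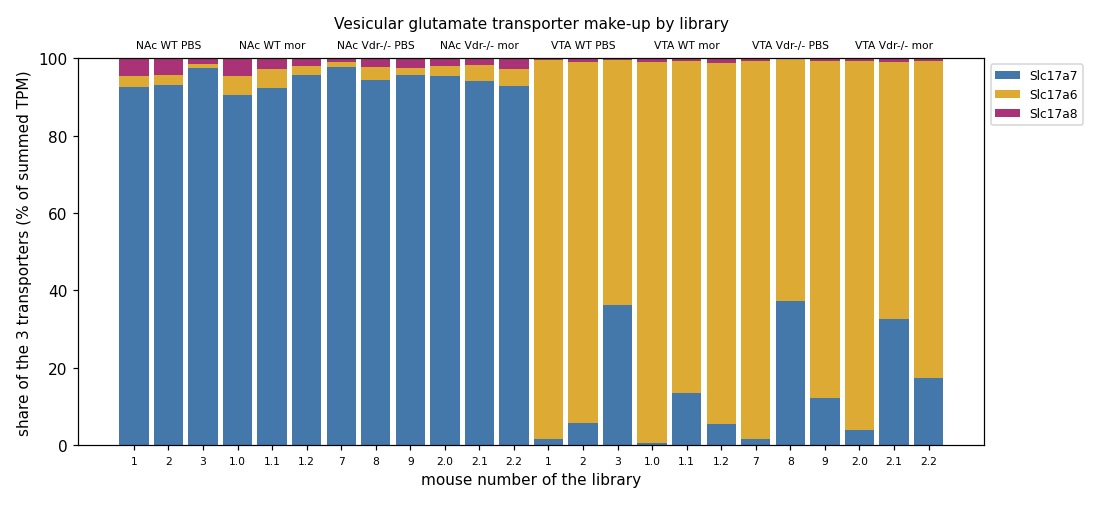
Share of each of the 3 vesicular glutamate transporters in their summed TPM, 1 stacked bar for each of 24 libraries, labelled by mouse number and grouped by region, genotype (WT, wild-type) and injection (mor, morphine). Slc17a7 fills at least 90.4% of every NAc bar, while in the VTA its share runs from 0.698% to 37.2%.

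Set against the GABA transporter, the 3 glutamate transporters together made up 56.2% ± 10.04 (SD, n = 12) of the summed TPM with Slc32a1 in the NAc and 54.3% ± 8.76 in the VTA. The 2 ranges, 42.1% to 73.4% and 40.6% to 67.5%, overlapped over most of their length, and no test was made of this share. In the VTA it was 43.3% to 48.9% in wild-type mice after PBS and 50.1% to 60.6% after morphine, and 40.6% to 55.1% against 61.7% to 67.5% in Vdr-/- mice, so that in each genotype every morphine library lay above every PBS library. Such separation was common: 44.3% (wild-type) and 48.4% (Vdr-/-) of all genes did not overlap in the VTA comparisons of morphine with PBS, which hold 2 PBS libraries a genotype. In the NAc the PBS and morphine ranges of the share overlapped in both genotypes.

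All 7 members differed between the regions. Over the 4 groups, limma (moderated test on log2 of the normalised count + 1, Benjamini-Hochberg adjusted p under 0.05) called 7 of 7, against 73.0% of all 16147 genes tested, and 5 of the 7 were higher in the NAc. Since most genes differed between these tissues, the size of the differences says more than their number. Normalised counts given here are reads divided by the DESeq2 size factor over all 24 libraries, and log2 differences are NAc minus VTA.

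Among the glutamate transporters, Slc17a7 had 5390 (lowest), 9167 (median) and 16956 (highest) normalised counts in the NAc and 43.6, 533 and 2476 in the VTA, a log2 difference of 4.37 ± 0.59 (SE, adjusted p = 1.18e-06). Slc17a6 went the other way, from 141, 263 and 436 in the NAc to 3474, 5216 and 6504 in the VTA, a log2 difference of -4.25 ± 0.10 (adjusted p = 1.34e-18). Slc17a8 was low in both regions, with 145, 202 and 289 in the NAc and 14.1, 41.3 and 59.4 in the VTA, and differed by 2.52 ± 0.15 (adjusted p = 4.2e-12). For none of these 3 transporters did any NAc library overlap with any VTA library. Within the 4 single groups, 53.9% to 66.2% of all genes did not overlap between the regions, and over all 12 libraries a region this share was not counted.

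The GABA genes differed by far less. Gad1 had 8810, 10803 and 12545 normalised counts in the NAc and 4193, 6009 and 8012 in the VTA, a log2 difference of 0.83 ± 0.06 (adjusted p = 2.21e-10). Gad2 had 10391, 13635 and 16177 against 5333, 6888 and 9838, a difference of 0.91 ± 0.06 (adjusted p = 3.0e-11). Neither gene overlapped between the regions, which within single groups also held for 53.9% to 66.2% of all genes. Slc32a1, with 3265, 3796 and 5268 against 1890, 2718 and 3273, differed least (0.59 ± 0.07, adjusted p = 1.38e-07), and its ranges overlapped by a few counts. The astrocytic transporter Slc6a11 was the one GABA gene that was higher in the VTA, with 2261, 4084 and 5401 in the NAc and 13485, 17179 and 20940 in the VTA (log2 difference -2.14 ± 0.09, adjusted p = 9.28e-15).

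**Figure D2:**
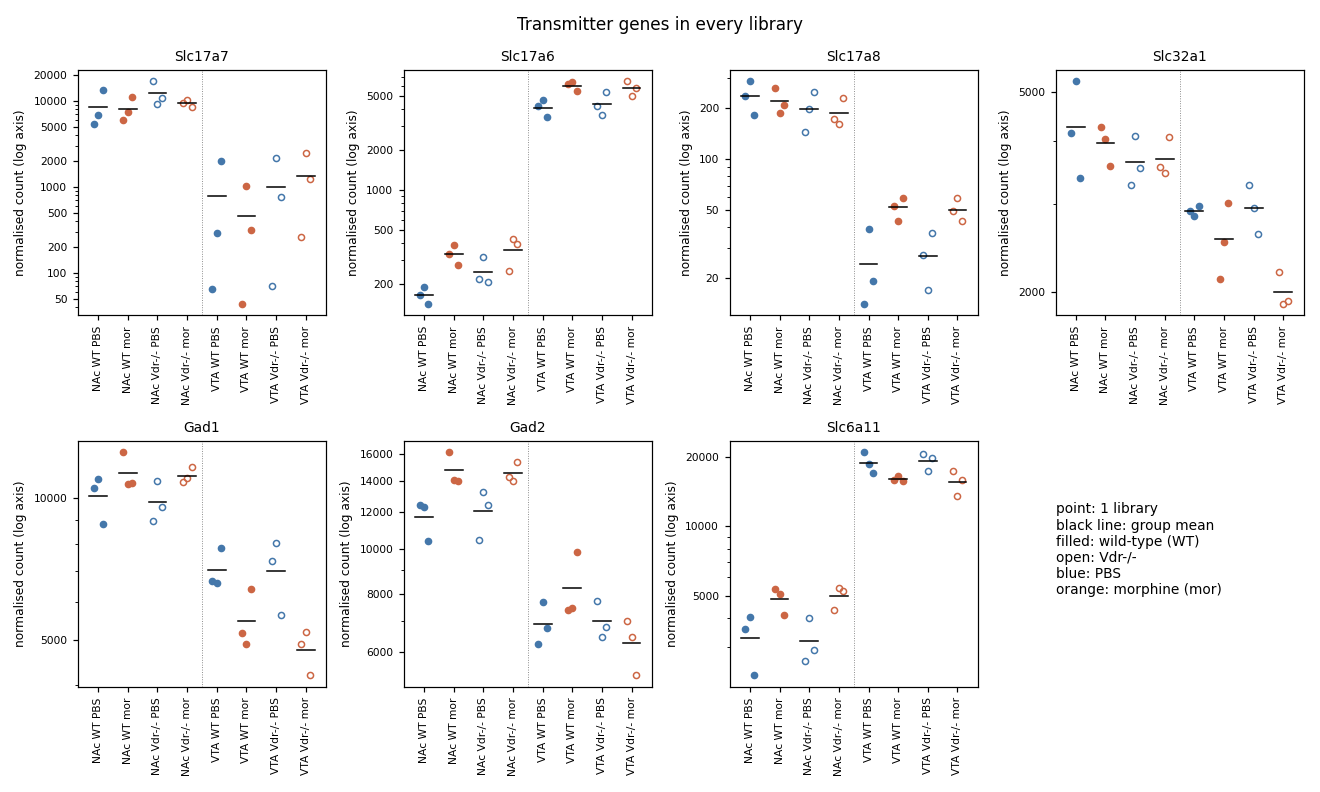
Normalised counts (log axis) of the 7 members, 1 panel each, in the 8 groups of 3 libraries. Points are libraries, the black line is the group mean, filled points are wild-type and open points Vdr-/-, and colour gives the injection. Slc17a7 and Slc17a6 change places between NAc (left of the dotted line) and VTA, and the VTA points of Slc17a7 are spread from 43.6 to 2476.

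Within the 4 single groups the same picture held, with 1 exception. In wild-type mice given PBS 7 of 7 members were called (57.8% of all genes), in wild-type mice given morphine 7 of 7 (46.0%), in Vdr-/- mice given PBS 6 of 7 (55.7%) and in Vdr-/- mice given morphine 7 of 7 (44.2%). The exception was Slc32a1 in Vdr-/- mice given PBS, with 3265, 3537 and 4095 normalised counts in the NAc and 2607, 2933 and 3273 in the VTA (log2 difference 0.31, 95% interval 0.02 to 0.59, adjusted p = 0.0656). If the libraries with the same mouse number are taken as pairs, Slc32a1 was higher in the NAc in 11 of 12 and each other member had the same direction in 12 of 12. An exact two-sided sign-flip test over these 12 numbers gave p = 0.000488 for those 6 members, the smallest it can give, and p = 0.000977 for Slc32a1.

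Slc17a7 in the VTA was the least settled value. In VTA mice 1, 1.0 and 7 it had 65.1, 43.6 and 70.8 normalised counts, and in mice 3, 8 and 2.1 it had 1989, 2155 and 2476. High and low libraries stood side by side within groups, and in wild-type mice given PBS the SD (1052) was larger than the mean (781). The summed level of 9 cortical excitatory neuron markers ran from 55.7 to 84.9 TPM over the VTA libraries, against 185 to 333 in the NAc. Mice 3, 2.1 and 8, high in Slc17a7, had its 3 highest values (84.9, 84.2 and 76.4 TPM), and mice 1 and 7, low in Slc17a7, its lowest (55.7 and 57.7), while mouse 1.0, lowest in Slc17a7, had 72.6. Single cortical genes ranged more widely: Neurod2 ran from 20.1 to 232 normalised counts and Fezf2, a marker of deep-layer cortical neurons, from 1.01 to 100.2. Their part in the Slc17a7 values was not tested. In Vdr-/- mice given morphine the region call for Slc17a7 was lost in 4 of 24 fits that each left out 1 library (log2 difference 2.41 to 4.03, adjusted p up to 0.147), namely without NAc mouse 2.0, 2.1 or 2.2 or VTA mouse 2.0.

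Transcription factors that mark the lineages of these neurons differed between the regions as well. In this contrast limma called 73.0% of all 16147 genes, 5686 higher in the NAc and 6105 lower. The direction and size of the differences therefore say more than the counts. Of 9 factors of forebrain GABA neurons, 9 were higher in the NAc and 0 lower (median log2 difference 2.00, against -0.02 for all genes), led by Dlx5, with 170 to 351 normalised counts in the NAc and 16.4 to 61.8 in the VTA. Of 9 factors of cortical glutamate neurons 7 were higher in the NAc and 0 lower (median 2.74), led by Tbr1, with 661 to 1870 in the NAc and 7.26 to 59.7 in the VTA. Of 10 factors of midbrain and diencephalic glutamate neurons 8 could be tested and 8 were lower in the NAc (median -5.93). Of 8 factors of midbrain GABA neurons 5 could be tested and 5 were lower in the NAc (median -1.56). Gata3, which specifies midbrain GABA neurons, had 0 reads in 12 of 12 NAc libraries and 9 to 338 reads in the VTA. Over the same libraries 5 of 5 markers of subthalamic and mammillary neurons, which lie beside the VTA, were lower in the NAc too (median -6.23).

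Other genes of the 2 transmitter cycles also differed between the regions. For glutamate supply and clearance, 4 of 12 genes tested were higher and 6 lower in the NAc (median log2 difference -0.19), where of all 16147 genes 5686 were higher and 6105 lower. The largest differences were in Slc1a6, the glutamate transporter EAAT4 (-1.46 ± 0.07, SE), Gls2, a glutaminase (-1.14 ± 0.05), and the glutamine transporters Slc38a2 (-0.83 ± 0.08) and Slc38a1 (-0.82 ± 0.04). For GABA and glycine clearance and breakdown, 0 of 7 genes were higher and 6 lower (median -0.54). Slc6a9, the glycine transporter GlyT1, differed by -1.79 ± 0.06 (adjusted p = 6.18e-16).

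Genes were also ranked by how closely their level over the 24 libraries followed each member, as the root mean square difference of centred log2 values among 12884 genes with a mean of at least 50. This is a description, dominated by the regional difference. Slc6a11 was followed most closely by Sparc (0.17), a secreted matrix protein, then Akap12 (0.20) and Arhgap24 (0.21), where the member's own spread was 1.11. Slc17a6 was followed by Cbln1 (0.40), a synapse organiser, Nhlh2 (0.49) and Adcyap1 (0.51), which encodes the peptide PACAP. Slc32a1 stood among the 3 genes nearest to Gad1 (0.19), the only case of 1 member near another. Slc17a7 had the most distant neighbours (Ptk2b, 0.80, Vipr1, 0.91, and LOC101056001, 0.94).

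The effect of losing the vitamin D receptor was asked by a comparison of the 2 genotypes in each of 4 tables, 1 for each region after PBS or morphine. All but 2 of these libraries also enter the comparisons of morphine with PBS. No member was called. limma called 0 of 7 in the NAc after PBS (0.069% of all genes were called), 0 of 7 in the NAc after morphine (0.192%), 0 of 7 in the VTA after PBS (0.39%) and 0 of 7 in the VTA after morphine (0.0624%), and edgeR and DESeq2 on the recovered reads also called 0 in each. At an unadjusted p under 0.05 the counts by limma were 1, 0, 0 and 2. The member in the NAc after PBS was Slc17a6, with 164, 191 and 141 normalised counts in wild-type mice 1, 2 and 3 and 219, 315 and 207 in Vdr-/- mice 7, 8 and 9, a log2 difference (Vdr-/- minus wild-type) of 0.57 (95% interval 0.14 to 1.00, adjusted p = 0.467). Those 2 groups did not overlap, as was the case for 16.9% of genes in that table. In the VTA after morphine, Gad2 had 7370, 7465 and 9838 in wild-type mice 1.0, 1.1 and 1.2 and 6976, 6453 and 5333 in Vdr-/- mice 2.0, 2.1 and 2.2 (log2 difference -0.38, 95% interval -0.70 to -0.07, adjusted p = 0.521). Slc32a1 differed there by -0.33 (-0.61 to -0.05, adjusted p = 0.533).

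These negative results are of unequal strength. For Gad1 the 95% interval of the log2 difference reached no further than -0.31 to 0.28 in 3 of the 4 comparisons and -0.46 to 0.07 in the VTA after morphine. Slc6a11 was bounded within -0.19 to 0.24 in the VTA after PBS and -0.18 to 0.26 in the NAc after morphine. For Slc17a7 in the VTA the interval ran from -2.82 to 3.89 after PBS and from -0.76 to 4.65 after morphine, so that even a several-fold difference was not detectable. With 3 libraries against 3, the exact permutation test of a single gene cannot go below p = 0.1, a value it reached for Slc17a6 in the NAc after PBS and Gad2 in the VTA after morphine.

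**Figure D3:**
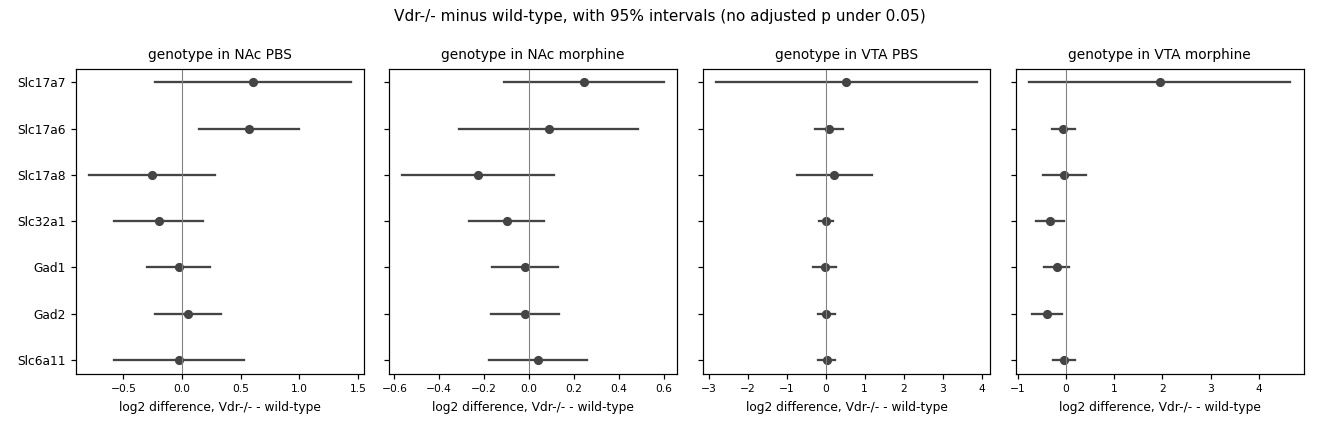
Log2 difference between Vdr-/- and wild-type mice for the 7 members in the 4 combinations of region and injection, with 95% intervals from limma. No member was called; the intervals of Slc17a7 in the VTA are the widest, from -2.82 to 3.89 after PBS.

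Morphine against PBS was compared within each region and genotype. In the NAc, limma called 1 of 7 members in wild-type mice (0.813% of all genes) and 2 of 7 in Vdr-/- mice (19.1%), all 3 higher after morphine. In wild-type mice the member was Slc17a6, with 164, 191 and 141 normalised counts in PBS mice 1, 2 and 3 and 333, 390 and 276 in morphine mice 1.0, 1.1 and 1.2. The lowest morphine library lay above the highest PBS library (the groups did not overlap, in either direction, for 25.5% of all genes in that table), and the log2 difference (morphine minus PBS) was 1.01 ± 0.16 (SE, adjusted p = 0.0444). This is a 2.02-fold rise. In 5 of 6 fits that left out 1 library the call was lost, with differences of 0.89 to 1.14 and adjusted p up to 0.212, and it was kept without PBS mouse 2. In Vdr-/- mice Slc17a6 had 219, 315 and 207 after PBS and 250, 436 and 394 after morphine, with overlapping groups and a log2 difference of 0.53 ± 0.19 (adjusted p = 0.0760).

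In the NAc of Vdr-/- mice the called members were Slc6a11 and Gad2. Slc6a11 had 2610, 4007 and 2904 normalised counts in PBS mice 7, 8 and 9 and 4323, 5401 and 5241 in morphine mice 2.0, 2.1 and 2.2, a log2 difference of 0.67 ± 0.13 (adjusted p = 0.00484), and stayed called in 6 of 6 fits without 1 library (0.55 to 0.85). Gad2 had 10464, 13287 and 12449 after PBS and 14289, 13984 and 15435 after morphine, a smaller difference of 0.28 ± 0.08 (adjusted p = 0.0290) that was lost in 5 of 6 such fits (0.18 to 0.35, adjusted p up to 0.114) and kept without PBS mouse 8. The groups did not overlap for either gene, nor for 37.9% of all genes in that table. In wild-type mice the same 2 genes differed in the same direction without passing the threshold: Slc6a11 by 0.61 ± 0.21 (adjusted p = 0.228), from 3575, 4039 and 2261 after PBS to 5358, 5096 and 4129 after morphine, and Gad2 by 0.35 ± 0.11 (adjusted p = 0.188), from 12463, 12332 and 10391 to 16177, 14112 and 13999. Groups did not overlap for these either (25.5% of all genes). Without PBS mouse 8, 5 of 7 members were called in Vdr-/- mice. The NAc calls were lost in both genotypes with limma without a trend, and in Vdr-/- mice also with edgeR on all 12 libraries (highest adjusted p 0.0888 for Slc17a6, 0.0714 for Slc6a11 and 0.132 for Gad2). Gad1 in Vdr-/- mice, with 8946, 10891 and 9601 after PBS and 10851, 11024 and 11645 after morphine, gave 0.20 ± 0.07 (adjusted p = 0.0627). Slc17a7 gave 0.00 ± 0.34 in wild-type and -0.35 ± 0.17 in Vdr-/- mice (adjusted p = 0.996 and 0.171), with overlapping groups. Slc32a1 and Slc17a8 differed by less than 0.1 in both genotypes, with 95% intervals from -0.44 to 0.29 and from -0.53 to 0.37 in wild-type mice.

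Cell type markers differed with the injection in the same NAc tables, where limma called 0.813% (wild-type) and 19.1% (Vdr-/-) of all genes. In Vdr-/- mice 10 of 10 medium spiny neuron markers were lower after morphine (median log2 difference -0.56), with a summed level of 4061 to 4758 TPM after PBS and 2501 to 3267 after morphine, and 3 of 10 were lower in wild-type mice (4652 to 5763 against 3123 to 4033). Of 8 astrocyte markers 5 were higher after morphine in Vdr-/- mice and 0 lower (median 0.30), and 1 of 8 was higher in wild-type mice (median 0.28). The summed astrocyte level was 1500 to 1545 TPM after PBS and 1499 to 1809 after morphine in Vdr-/- mice, and 1040 to 1735 against 1813 to 1863 in wild-type mice. The summed level of 5 thalamic neuron markers was 27.6 to 46.6 TPM after PBS and 49.3 to 68.4 after morphine in wild-type mice, and 37.2 to 48.3 against 57.9 to 65.5 in Vdr-/- mice, with no overlap in either. Of all genes, 25.5% (wild-type) and 37.9% (Vdr-/-) did not overlap in these comparisons. Of the 5 thalamic markers none was called by limma in wild-type mice (median 0.07), and 1 was higher and 1 lower in Vdr-/- mice (median 0.09). GABA interneuron markers went both ways in Vdr-/- mice, with 2 of 6 higher and 3 lower (median 0.07). There 4 of 6 oligodendrocyte and 4 of 6 microglia markers were lower. In wild-type mice 0 of 6 interneuron and 0 of 6 oligodendrocyte markers were called, and 1 of 6 microglia markers was lower. The part of these shifts in the Slc17a6, Slc6a11 and Gad2 values was not tested.

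**Figure D4:**
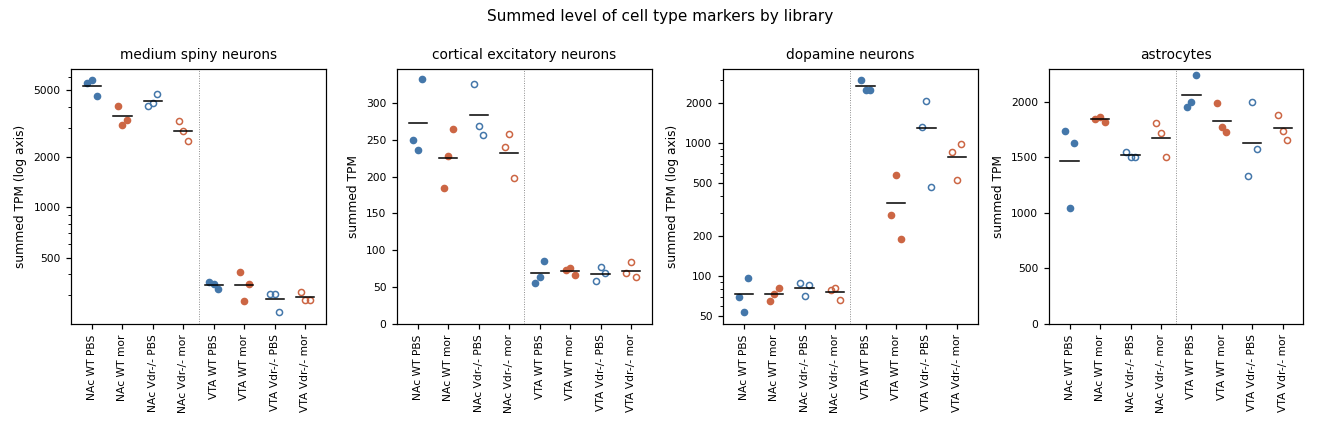
Summed TPM of 4 marker lists in each library by group (points are libraries, black lines group means, filled wild-type, open Vdr-/-; the panels of medium spiny and dopamine neurons have log axes). Medium spiny neuron markers in the NAc were lower in the morphine groups, and dopamine neuron markers in the VTA ran from 191 to 2981.

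In the VTA, limma called 0 of 7 members in wild-type mice (3.65% of all genes) and 1 of 7 in Vdr-/- mice (10%). These tables hold 2 PBS libraries a genotype, without wild-type mouse 3 and Vdr-/- mouse 8, and a design of 3 against 2 cannot bring an exact permutation test below p = 0.1. The called member was Slc32a1 in Vdr-/- mice, with 3273 and 2607 normalised counts in PBS mice 7 and 9 and 2191, 1890 and 1919 in morphine mice 2.0, 2.1 and 2.2. It fell by 0.56 ± 0.11 on the log2 scale (adjusted p = 0.0240). The PBS mouse absent from that table, mouse 8, had 2933 normalised counts, and with all 3 PBS mice the difference was -0.55. The call was kept without morphine mouse 2.0 or PBS mouse 9 and lost without morphine mouse 2.1, morphine mouse 2.2 or PBS mouse 7 (-0.72 to -0.39 over the 5 fits, adjusted p up to 0.153), and limma without a trend also lost it (adjusted p = 0.108). In wild-type mice Slc32a1 had 2900 and 2828 after PBS (mice 1 and 2) and 2122, 2515 and 3007 after morphine, and these groups overlapped (-0.20 ± 0.13, adjusted p = 0.396).

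No other GABA gene was called in the VTA, where Gad1 and Slc6a11 were lower after morphine in both genotypes and Gad2 had no common direction. Gad1 had 6659 and 6585 normalised counts in wild-type PBS mice 1 and 2 and 5168, 4883 and 6392 after morphine (-0.30 ± 0.11, adjusted p = 0.173), and 7350 and 5627 against 4888, 5181 and 4193 in Vdr-/- mice (-0.45 ± 0.13, adjusted p = 0.0630). Slc6a11 had 20940 and 18612 against 15901, 16491 and 15726 in wild-type mice (-0.32 ± 0.09, adjusted p = 0.0905) and 20577 and 19677 against 17335, 13485 and 15926 in Vdr-/- mice (-0.39 ± 0.10, adjusted p = 0.0555). In each of these 4 cases every morphine library lay below every PBS library of the table, but 44.3% (wild-type) and 48.4% (Vdr-/-) of all genes did not overlap in these tables either. Gad2 had 6248 and 7694 against 7370, 7465 and 9838 in wild-type mice (0.21 ± 0.15, adjusted p = 0.418), and 7726 and 6799 against 6976, 6453 and 5333 in Vdr-/- mice (-0.23 ± 0.11, adjusted p = 0.220), with overlapping groups. Of the glutamate transporters, Slc17a6 had 4194 and 4679 against 6145, 6397 and 5438 in wild-type mice (0.41 ± 0.09, adjusted p = 0.0643), and 4209 and 5383 against 6504, 5049 and 5742 in Vdr-/- mice (0.26 ± 0.13, adjusted p = 0.226). Slc17a8 had 14.1 and 39.2 against 53.4, 43.6 and 59.4 in wild-type mice (1.08 ± 0.41, adjusted p = 0.174), and 27.2 and 36.9 against 49.6, 58.8 and 43.3 in Vdr-/- mice (0.64 ± 0.23, adjusted p = 0.115). Neither comparison overlapped, against the same shares of all genes and with at most 69 reads a library. At an unadjusted p under 0.05, 4 of 7 members passed in each genotype by limma, beside 3919 of 16187 genes in wild-type and 4879 of 16364 in Vdr-/- mice. edgeR called 0 in wild-type and 2 in Vdr-/- mice, and DESeq2 called 2 and 3, beside 628 and 1764 genes in all by edgeR and 1358 and 1809 by DESeq2.

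Markers again moved with the injection. In wild-type mice 7 of 9 dopamine neuron markers were lower in the VTA after morphine and 0 higher (median log2 difference -3.06). In Vdr-/- mice 0 of 9 were lower and 1 higher (median -0.02). Among all genes limma called 3.65% in wild-type and 10% in Vdr-/- mice. Microglia markers were lower for 4 of 6 in wild-type and 1 of 6 in Vdr-/- mice. In Vdr-/- mice 6 of 6 oligodendrocyte markers were lower (median -0.76), with a sum of 6612 to 7025 TPM after PBS and 4324 to 5616 after morphine. In wild-type mice limma called 0 of 6 of them at a median of -0.81, with 7549 to 8177 TPM after PBS and 4018 to 6428 after morphine. In VTA mouse 2.1 the choroid plexus markers summed to 291 TPM, against at most 34.8 in any other library. The astrocyte list held 1 of 8 lower in wild-type and 1 of 8 higher in Vdr-/- mice. The summed level of 5 thalamic neuron markers ran from 46.9 to 369 TPM over the VTA libraries. It was highest in mice 1.1, 9, 1.2 and 2.0 (369, 238, 175 and 144 TPM), with 6397, 5383, 5438 and 6504 normalised counts of Slc17a6. Mouse 2.2, lowest in this sum, had 5742. Mouse 1.0, below the wild-type PBS range of 63.6 to 91.7 TPM, had 6145. Between the injections limma called 0 of 5 in each genotype (median 1.03 in wild-type and -0.44 in Vdr-/- mice). The part of these differences in the VTA values of the members, and in their shares, was not tested.

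**Figure D5:**
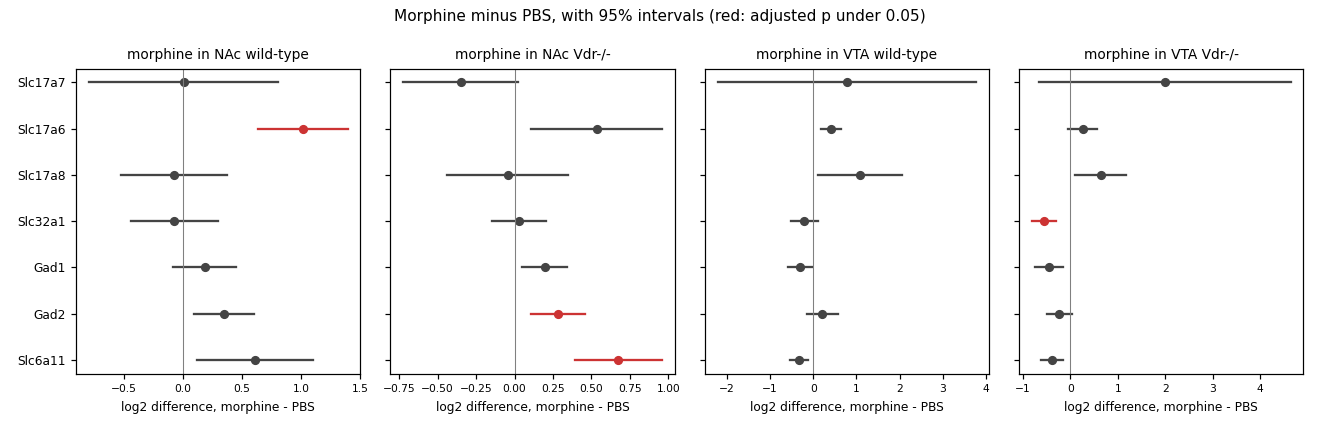
Log2 difference between morphine and PBS for the 7 members in each region and genotype, with 95% intervals from limma and called members in red; horizontal scales differ between panels. Slc17a6 in the NAc of wild-type mice, Gad2 and Slc6a11 in the NAc of Vdr-/- mice and Slc32a1 in the VTA of Vdr-/- mice were called.

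The ratio of the 2 GABA-synthesising enzymes varied between libraries. Per length, Gad1 stood to Gad2 as 0.650, 0.685 and 0.652 in the NAc of wild-type mice 1, 2 and 3 (PBS) and as 0.597, 0.584 and 0.591 in mice 1.0, 1.1 and 1.2 (morphine). In the VTA the ratio was 0.820, 0.658 and 0.894 in wild-type mice after PBS and 0.539, 0.503 and 0.500 after morphine, and 0.732, 0.955 and 0.637 against 0.539, 0.618 and 0.605 in Vdr-/- mice. In these 3 settings every morphine library had a lower ratio than every PBS library. Of all genes, 25.5% did not overlap between the injections in the NAc of wild-type mice. In the VTA this was 44.3% in wild-type and 48.4% in Vdr-/- mice, with 2 PBS libraries a genotype. In the NAc of Vdr-/- mice the ranges of the ratio, 0.593 to 0.658 after PBS and 0.580 to 0.606 after morphine, overlapped. No test was made of this ratio.

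Whether morphine acted differently in the 2 regions was tested as an interaction over all 24 libraries. limma called 1 of 7 members in wild-type mice (7.53% of all genes) and 0 of 7 in Vdr-/- mice (0.576%), where 5 of 7 passed at an unadjusted p under 0.05 (2110 of 16147 genes), edgeR called 0 and DESeq2 called 2. The called member was Slc6a11: in wild-type mice the morphine difference in the NAc exceeded that in the VTA by 0.82 ± 0.25 on the log2 scale (SE, adjusted p = 0.0464), with higher levels after morphine in the NAc and lower ones in the VTA. In Vdr-/- mice the value was 0.98 ± 0.25 (adjusted p = 0.0806). The wild-type call was lost in 14 of 24 fits that left out 1 library (0.57 to 0.99, adjusted p up to 0.113), the lowest value being that without NAc wild-type PBS mouse 3. Without VTA PBS mice 3 and 8, the pair absent from the morphine tables, it was 0.90 and no member was called. With the mouse number as a replicate block the Slc6a11 call was lost and Slc17a8 (-1.28) was called in its place. Of 8 astrocyte markers 3 were higher and 0 lower in the wild-type interaction (median 0.46), and 0 of 8 were called by limma in Vdr-/- mice (median 0.29). Their part in the Slc6a11 value was not tested. Gad1 gave 0.53 ± 0.18 in wild-type (adjusted p = 0.0758) and 0.74 ± 0.18 in Vdr-/- mice (adjusted p = 0.0684).

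No member's response to morphine was shown to depend on genotype. For the interaction of genotype and injection limma called 0 of 7 members in the NAc (0% of all genes) and 0 of 7 in the VTA (0.0553%), with 0 of 7 at an unadjusted p under 0.05 in each and 0 called by edgeR and by DESeq2. The lowest adjusted p in the VTA was 0.431, for Gad2 (-0.44, 95% interval -0.91 to 0.02). For the interaction of genotype and region limma called 0 of 7 after PBS (0% of all genes) and 0 of 7 after morphine (0%), with 0 and 1 at an unadjusted p under 0.05 and 0 called by edgeR and by DESeq2. The 1 member was Gad2 after morphine (0.37, 95% interval 0.01 to 0.74, adjusted p = 1.00).

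The other genes of the transmitter cycles were also compared after morphine. For this comparison limma called 0.813% (wild-type) and 19.1% (Vdr-/-) of all genes in the NAc. In the VTA it called 3.65% and 10%. In the NAc of Vdr-/- mice 5 of 12 genes of glutamate supply and clearance were higher after morphine and 0 lower (median log2 difference 0.24, against -0.01 for all genes), among them the glutamine transporters Slc38a2 (0.69 ± 0.11, SE, adjusted p = 0.00150) and Slc38a1 (0.33 ± 0.06), Glud1, glutamate dehydrogenase (0.33 ± 0.06), and Glul, glutamine synthetase (0.27 ± 0.06). In wild-type mice 0 of 12 were called by limma (median 0.22). In the VTA of Vdr-/- mice 2 of 12 were higher and 1 lower, with Slc38a2 at 0.89 ± 0.06 (adjusted p = 0.00356) and the glutamine transporter Slc38a3 at -0.85 ± 0.11. Slc38a2 was also the only gene of these lists called between genotypes. In the VTA after morphine it was higher in Vdr-/- than in wild-type mice by 0.54 ± 0.06 (adjusted p = 0.0300, 0.0624% of all genes called). The genotype difference in its morphine response in the VTA was 0.94 ± 0.10 (adjusted p = 0.0437, 0.0553%), with 2 PBS libraries a genotype. Over the alternatives, 4 to 95 and 0 to 198 genes in all were called in these comparisons. Where the count was 0 the second call was lost. Otherwise the stability of the Slc38a2 calls is not reported here. Of the GABA and glycine list, 1 of 5 genes tested was called in the NAc of Vdr-/- mice. This was Slc6a13, the transporter GAT-2, which was higher after morphine (1.02 ± 0.15, adjusted p = 0.00115). In the VTA of Vdr-/- mice 1 of 7 was called, Abat, which breaks GABA down and was lower (-0.34 ± 0.07, adjusted p = 0.0350). Both counts are near the shares of all genes called there (19.1% and 10%).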

How the data were processed

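RNA of NAc and VTA punches was sequenced as directional mRNA libraries (101-base paired reads). Per the labels and methods, the authors used CASAVA 1.8, trimmed adapters with Trimmomatic 0.36, mapped reads with STAR 2.4.2a to the mouse genome and counted them per gene. The strand setting of the counting is not given in the sources used here. The deposited values are signal, normalized counts of reads divided by DESeq2 size factors, in 8 tables of 2 groups each. All values were whole multiples of 1 read (100%, tolerance 0.01), so the reads could be recovered, and 0 genes had other reads in a second table. No replicate pair was a duplicate (chi-square per degree of freedom 3.99 to 34.5). The labels do not say that libraries of both regions with 1 mouse number came from 1 animal, and p-values measure the spread between these samples.

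Groups came from the labels. Genes averaging at least 10 entered limma 3.58.1 as log2(value + 1) (trend, two-sided, Benjamini-Hochberg adjustment over all genes tested, threshold 0.05). Genotype and injection were fitted in the deposited tables, and region and its interactions on reads scaled over 24 libraries. A fold change on this scale understates that of low genes. The VTA morphine tables hold 2 PBS libraries each. Alternatives were TMM scaling, a pseudocount of 8, a minimum of 50 or none, limma without trend, edgeR 4.0.16 and DESeq2 1.42.0 on the recovered reads, and each library left out. Single members were also tested with exact permutation and sign-flip tests. The fits were tested on simulated data in which every gene had the same relative spread between libraries beyond counting error. Such data do not cover genes as variable as Slc17a7 in the VTA. TPM used summed exon lengths of GENCODE M21 (found for 99.8% of 30270 genes). Members and lists of pathway and marker genes were compiled from general knowledge with earlier results of these data known. Named were the 7 members, in each list at most the 4 genes past the threshold with the largest differences, and the 3 genes nearest to each member. Some genes that this rule names are not reported here. Single levels of Neurod2, Fezf2, Gm14205 and Gad1-ps were chosen after their values were seen. Analyses ran in R 4.3.3 and in Python 3.11.15 with scipy 1.17.1, pandas 2.3.3, matplotlib 3.10.9 and numpy 2.4.6.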

Additional observations from a re-analysis of the deposited data

Results flagged for a closer look

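The response of Slc6a11, the astrocytic GABA transporter, to morphine differed between the 2 regions in wild-type mice by 0.82 on the log2 scale (limma interaction over 24 libraries, adjusted p = 0.0464). After morphine it had 4129 to 5358 normalised counts in the NAc, against 2261 to 4039 after PBS, and 15726 to 16491 in the VTA, against 17024 to 20940 after PBS. In Vdr-/- mice the value was 0.98 and did not pass (adjusted p = 0.0806). Of 8 astrocyte markers 3 were higher and 0 lower in the wild-type interaction (median 0.46), where 7.53% of all genes were called. The part of these markers in the Slc6a11 value was not tested. With the mouse number as a replicate block the call was lost. Over 9 alternatives, not counting those with 1 library left out, adjusted p ran from 0.0204 to 0.0703.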

How the results depend on the processing

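Region calls were the most stable: the count of members called over the 4 groups was 7 under each alternative, and single groups gave 6 or 7. No called difference changed sign under any alternative, and 0 members were called for genotype, genotype by injection or genotype by region under any. The morphine counts moved. In the NAc of wild-type mice the count fell from 1 to 0 with limma without trend, and was 0 to 1 with 1 library left out. In the NAc of Vdr-/- mice it fell from 2 to 0 without trend and to 0 with edgeR on all 12 libraries, and was 1 to 5 with 1 library left out, 5 being without PBS mouse 8. In the VTA of wild-type mice it rose from 0 to 2 with DESeq2, to 2 with edgeR on 12 libraries and to 1 with all 3 PBS mice, and was 0 to 2 with 1 left out, 2 being without morphine mouse 1.1. In the VTA of Vdr-/- mice it went from 1 to 2 with TMM scaling, edgeR, edgeR on 12 libraries and all 3 PBS mice, to 3 with DESeq2 and to 0 without trend, and was 0 to 2 with 1 left out, 2 being without morphine mouse 2.0. The injection by region count in wild-type mice went from 1 to 0 with no filter, without trend, and without VTA PBS mice 3 and 8 (chosen after seeing the data), to 2 with DESeq2, and was 0 to 1 with 1 left out. In Vdr-/- mice it went from 0 to 2 with DESeq2 and was 0 to 2 with 1 left out. The causes were not tested.

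Counts over all genes varied more, also with no single library left out. For genotype, 11, 30, 64 and 10 genes (NAc PBS, NAc morphine, VTA PBS, VTA morphine) became 8 to 63, 10 to 51, 17 to 290 and 4 to 95. For morphine, 128 and 3018 genes in the NAc (wild-type, Vdr-/-) became 27 to 1074 and 1180 to 3078, and 591 and 1639 in the VTA became 56 to 3233 and 0 to 1809. The 9 genes of genotype by injection in the VTA became 0 to 198, the 0 of genotype by region after PBS 0 to 16 and the 93 of injection by region in Vdr-/- mice 61 to 276. With the mouse number as a replicate block, 7 members were called for region over the groups (6 in Vdr-/- mice given PBS), and 1 (Slc17a8, in place of Slc6a11) for injection by region in wild-type mice. Pairing by mouse number was not evident in the data: deviations of same-numbered libraries correlated at -0.0665 to 0.168, over 0.1 for 3 of 12. The digit after the point (correlations from -0.26 to -0.03), used as a replicate block for genotype after morphine, called 0 members.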
